A study of Mus musculus with 9 samples.

Results

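The genes of the basal epithelial layer and of the desmosome described here are Trp63, Sfn, Jup, Dsp, Dsc3, Dsg3, Pkp1 and Perp. They were chosen by name, with earlier results of these data known. A gene was measured as the mean log2 signal of the probe sets that carry its symbol and no other. All 8 were measured, of 19930 genes in all, with 2 probe sets for Sfn and 1 for each other gene. The arrays hold adipose stromal cells (ASCs) of the mammary gland of female Balb/c mice, with 3 arrays each from nulliparous mice of 8 weeks kept without males (ASC-Ns, arrays N1 to N3), from mice at day 5 of lactation (ASC-Ls, L1 to L3) and from mice at day 3 of involution (ASC-Is, I1 to I3), which begins when the pups are taken away. By the study's methods the mice of the other stages were mated at 8 weeks. They were thus older than the nulliparous mice, and age cannot be told apart from stage in the comparisons with ASC-Ns. No group carries a transgene or a drug treatment. The labels describe stroma freed from the gland by enzyme digestion and spun down, while the study's methods describe low passage cultures grown from the floating adipocyte and stromal-vascular fractions, without saying whether these were combined. The labels call the arrays of a stage biological replicates, and which mice stand behind each is not given in the sources used here. The p-values therefore rest on the spread among these arrays alone, and the number of arrays limits their precision. The 2 probe sets of Sfn are annotated with the same transcript, and no genome was used to check whether either reads a near-identical copy.

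Desmosomes are the rivets of epithelial sheets. Cadherins of the desmoglein and desmocollin families reach across the gap between neighboring cells, the armadillo proteins plakoglobin and plakophilin bind their tails, and desmoplakin ties the plaque to the keratin filaments. In the mammary gland, desmosomes join luminal to luminal and luminal to basal cells, and p63, the product of Trp63, is a transcription factor that marks the nuclei of the basal, myoepithelial layer. Fibroblasts and adipocytes do not normally build desmosomes.

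RefSeq promoters of GRCm38.p6, from 250 bases before to 50 bases after the start of the gene, were matched for 3 of the 8 genes, Dsp, Jup and Sfn. They are printed so that their proximal sequences can be set beside each other, and no promoter was matched for the other genes. The same pair of arrays ranked highest for all 8 genes, so that this order does not set the 3 apart. Any link between these sequences and the signals was not tested. Capitals mark the GC box (GGGCGG, bound by Sp1 and its relatives) and the decamer motif of the p53 family, which includes p63. A decamer on its own is only part of a full site of this family. Both strands were searched.
Dsp promoter, chr13:38151044-38151343, plus strand: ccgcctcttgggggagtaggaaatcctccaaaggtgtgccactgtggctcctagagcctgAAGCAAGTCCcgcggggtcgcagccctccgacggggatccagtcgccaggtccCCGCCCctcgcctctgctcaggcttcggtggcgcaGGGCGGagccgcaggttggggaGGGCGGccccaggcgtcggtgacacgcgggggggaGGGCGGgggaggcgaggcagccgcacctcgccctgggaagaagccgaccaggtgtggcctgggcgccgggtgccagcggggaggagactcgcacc
Jup promoter, chr11:100397741-100398040, minus strand: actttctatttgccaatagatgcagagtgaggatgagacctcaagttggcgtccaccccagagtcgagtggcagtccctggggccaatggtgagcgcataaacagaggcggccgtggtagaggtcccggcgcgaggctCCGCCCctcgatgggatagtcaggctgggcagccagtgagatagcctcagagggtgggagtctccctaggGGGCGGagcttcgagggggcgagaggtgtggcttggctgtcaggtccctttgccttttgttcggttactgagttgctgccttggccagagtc
Sfn promoter, chr4:133602119-133602418, minus strand: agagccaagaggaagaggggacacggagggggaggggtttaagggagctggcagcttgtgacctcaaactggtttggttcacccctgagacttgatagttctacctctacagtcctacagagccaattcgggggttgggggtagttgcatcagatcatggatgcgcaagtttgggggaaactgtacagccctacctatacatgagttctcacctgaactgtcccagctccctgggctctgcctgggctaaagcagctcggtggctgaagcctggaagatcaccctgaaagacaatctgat
The Dsp promoter held 4 GC boxes, which start at positions -137, -102, -80 and -45 from the gene start, and 1 p53 family decamer at position -190 that overlaps none of them. The Jup promoter held 2 GC boxes, at -112 and -42, and no decamer. In the Sfn promoter neither motif was found. Of 32841 promoters of this length, 35.7% held a GC box and 8.36% the decamer. The TATA box (TATAAA) and the AP-1 site (TGANTCA), which 13.6% and 7.81% of promoters held, were in none of the 3, and an E-box (CANNTG, in 72.3% of promoters) was at position 4 in Dsp and at -41 in Sfn. The share of G and C was 73% in Dsp, 60.7% in Jup and 54.0% in Sfn, against a median of 52.7%. A match is a description of these letters only.

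The median log2 signal over all genes lay between 5.93 and 6.0 in the 9 arrays. The lowest correlation between arrays of a stage, taken across genes (not independent replicates), was 0.972 in ASC-Ns, 0.956 in ASC-Ls and 0.971 in ASC-Is. On the first principal component L2 stood apart with a score of 58.3. I2 was next at 31.5, no farther from 0 than N3 at the other end, at -32.3, and the highest of the remaining arrays was N2 at 13.6. L2 and I2 were known to have a high epithelial signal, and the stage comparisons are given with and without them.

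The transcript of Trp63 had its highest signal in the same arrays. Its log2 signal was 5.45, 5.60 and 5.28 in ASC-Ns (N1, N2 and N3), 5.12, 6.89 and 5.61 in ASC-Ls, and 5.36, 6.10 and 5.42 in ASC-Is. L2 was the highest of the 9 arrays and I2 the second, and the other 7 lay between 5.12 and 5.61. Sfn encodes stratifin, the 14-3-3 protein of epithelial cells, which binds phosphorylated partners and is a known target of p53. It had log2 signals of 7.0, 6.68 and 6.12 in ASC-Ns, 6.07, 10.33 and 6.54 in ASC-Ls, and 6.06, 8.47 and 6.33 in ASC-Is. The same replicates were at the top, now far above the rest of their stages. The 2 probe sets of Sfn gave this pattern alike, with L2 above the next ASC-L array by 3.53 and 4.05.

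The plaque proteins spread the same way. Dsp encodes desmoplakin, the plakin that anchors keratin filaments, and had log2 signals of 6.61, 6.59 and 4.90 in ASC-Ns, 5.39, 9.52 and 5.71 in ASC-Ls, and 5.43, 7.41 and 5.62 in ASC-Is. Here the ASC-Ns themselves were split, with N3 the lowest of all 9 arrays. Jup encodes plakoglobin, an armadillo protein of desmosomes that also serves adherens junctions, and had 8.24, 7.83 and 7.37 in ASC-Ns, 8.10, 10.07 and 7.09 in ASC-Ls, and 7.77, 8.63 and 7.71 in ASC-Is. L3 was its lowest array, so that the ASC-Ls held both ends of its range. Pkp1 encodes plakophilin 1, which strengthens the plaque by clustering desmosomal proteins, and had 6.47, 6.14 and 5.91 in ASC-Ns, 5.57, 8.46 and 5.94 in ASC-Ls, and 5.99, 6.91 and 5.72 in ASC-Is. Arrays of all stages overlapped for each of the 3 genes.

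Of the adhesive cadherins, Dsg3 encodes desmoglein 3 and had log2 signals of 5.03, 5.16 and 4.32 in ASC-Ns, 4.53, 8.70 and 4.47 in ASC-Ls, and 4.33, 5.95 and 4.29 in ASC-Is. L2 and I2 again stood above, and L1, L3, I1 and I3 lay together with N3, between 4.29 and 4.53. Dsc3 encodes desmocollin 3 and departed from the other genes. It had 3.82, 4.2 and 4.42 in ASC-Ns, 4.40, 6.77 and 4.17 in ASC-Ls, and 4.37, 4.49 and 4.0 in ASC-Is. Only L2 stood out, since I2 exceeded N3 by less than the spread of the ASC-Ns. By mean signal Dsc3 was among the lowest 25% of all genes, and outside L2 it lay between 3.82 and 4.49. Whether so low a signal hid a rise of Dsc3 in I2 was not tested. Perp encodes a tetraspan membrane protein of desmosomes that is a target of p53 and of p63 in mouse, and had 6.58, 6.32 and 5.68 in ASC-Ns, 5.32, 9.74 and 5.91 in ASC-Ls, and 5.63, 7.51 and 5.76 in ASC-Is. The highest and the lowest array of Perp were both ASC-Ls.

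**Figure D1:**
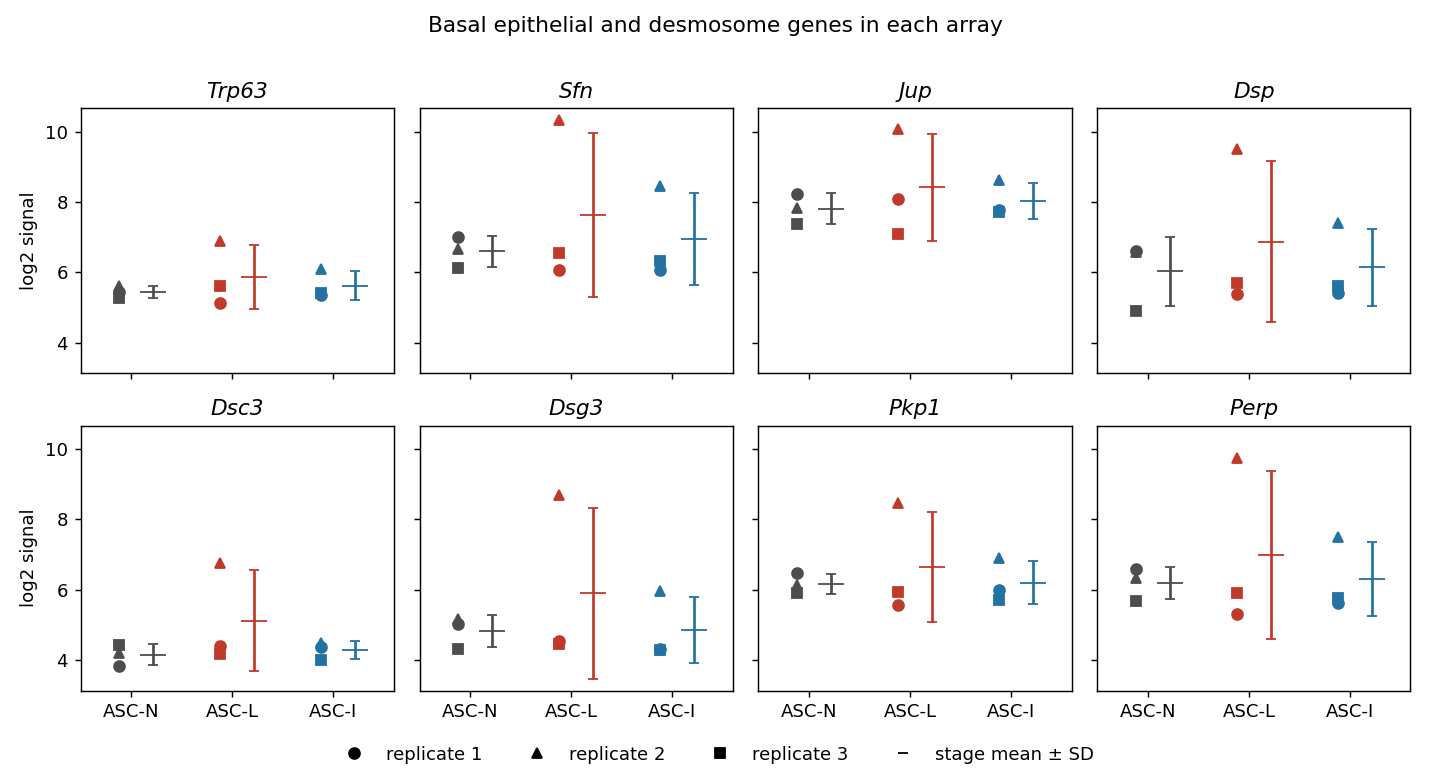
Log2 signal (vertical axis) of each gene in each array by stage (horizontal axis), with the marker shape giving the replicate number and the bar the stage mean and SD of 3 arrays. L2 (triangle) is the highest array for all 8 genes and I2 the second, although for Dsc3 I2 lies at 4.49, next to the other arrays.

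The order of the arrays was shared almost throughout. L2 ranked first of the 9 arrays for 8 of 8 genes and I2 ranked second for 8 of 8. Among the ASC-Ns, N3 was the lowest for 7 of 8, all but Dsc3, for which it was the highest. The bottom place was not held by arrays of any single stage. L1 was the lowest of 9 arrays for 3 genes, and N1, N3, L3, I1 and I3 for 1 gene each. Averaged over the 8 genes, the log2 signal was 6.15, 6.07 and 5.50 in ASC-Ns, 5.56, 8.81 and 5.68 in ASC-Ls, and 5.62, 6.93 and 5.60 in ASC-Is.

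The distance between the highest array of a stage and the next was largest for the cadherin Dsg3 in the ASC-Ls, at 4.18 on the log2 scale, or 18.1-fold. Perp, Dsp and Sfn followed at 3.83, 3.80 and 3.79, or 14.2-fold, 14-fold and 13.8-fold. Pkp1, Dsc3, Jup and Trp63 had smaller distances, of 2.52, 2.37, 1.97 and 1.27. In the ASC-Is the largest distance was that of Sfn, at 2.14, or 4.40-fold. Dsp, Perp and Dsg3 had 1.80, 1.75 and 1.62, and Pkp1, Jup and Trp63 had 0.92, 0.87 and 0.68. For Dsc3 it was 0.12. The distance in I2 was thus between 36.6% and 56.4% of that in L2 for the other 7 genes, and 5.21% for Dsc3. These are differences of single arrays and have no test. L2 exceeded the other ASC-Ls by at least 1 for 513 of the 19930 genes (2.57%) and for 8 of the 8, and I2 exceeded the other ASC-Is by at least 1 for 307 (1.54%) and for 4 of the 8. Among the 513 genes the median share was 47.0% (quartiles 24.7% and 77.1%), so that the 7 genes lay within the quartiles, and 12.1% of the 513 had a share below that of Dsc3.

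**Figure D2:**
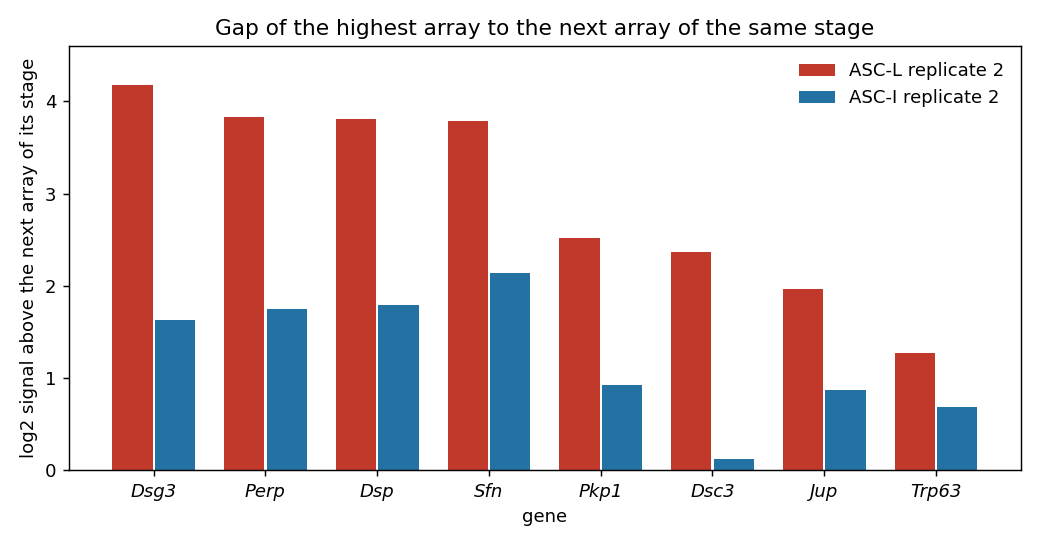
Log2 distance (vertical axis) between the highest array of the ASC-Ls or ASC-Is and the next array of its stage, for each gene. Dsg3 has the largest distance in L2, at 4.18, and Dsc3 the smallest in I2, at 0.12.

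The spread within a stage was wide compared with other genes in the ASC-Ls, and less uniformly so in the other stages. In the ASC-Ls the range of the 3 arrays was 4.43 for Perp, and only 34 of the 19930 genes (0.171%) had a larger one. For Sfn, Dsg3 and Dsp it was 4.26, 4.24 and 4.12, and for Trp63, the least variable of the 8, it was 1.76, which 3.05% of genes exceeded. In the ASC-Is the ranges lay between 0.49 for Dsc3, which 27.5% of genes exceeded, and 2.40 for Sfn, which 0.627% exceeded. In the ASC-Ns they lay between 0.32 for Trp63, which 50.1% of genes exceeded, and 1.71 for Dsp, which 1.84% exceeded. Of the sum of squares over the 9 arrays, the share that lay between the stage means was 26.7% for Dsc3 and between 6.85% (Pkp1) and 13.7% (Dsg3) for the other 7 genes, against a median of 15.9% over all genes.

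The comparison of ASC-Ls with ASC-Ns asks which genes differ in the stroma of the lactating gland. The mean was higher in ASC-Ls for 8 of the 8 genes, as it was for 51.7% of all genes, and no gene passed the limits of an unadjusted p under 0.05 and a change of at least 1.5-fold, the limits of the study's published gene lists. Dsg3 averaged 5.90 ± 2.43 in ASC-Ls and 4.83 ± 0.45 in ASC-Ns (SD, n = 3 each), a log2 change of 1.06 with a standard error of 1.03 (limma, unadjusted p = 0.328, adjusted p = 0.998). Its 95% interval ran from -1.26 to 3.39, so that neither a large increase nor a decrease can be told from no change. The change was 1.05 for Sfn (95% interval -1.35 to 3.44), 0.84 for Dsp (-1.56 to 3.23) and 0.80 for Perp (-1.54 to 3.14). The smallest p belonged to Dsc3, which averaged 5.11 ± 1.44 in ASC-Ls and 4.15 ± 0.30 in ASC-Ns (SD, n = 3 each), a change of 0.96 (standard error 0.58, unadjusted p = 0.134 by limma). The changes of Jup, Pkp1 and Trp63 were 0.61, 0.48 and 0.43 (standard errors 0.65, 0.67 and 0.40). The median change of the 8 was 0.82, and 0.01 over all genes. In all, 0 of the 8 passed, where 125 of the 19930 genes did (0.627%), and the arrays of the stages overlapped for all 8, where they did not overlap for 8.59% of all genes. By limma no gene of the 19930 had an adjusted p under 0.05 and 726 (3.64%) had an unadjusted p under 0.05.

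Without L2 and I2, the sign turned for 7 of the 8 genes. Perp then differed between ASC-Ls and ASC-Ns by -0.58 (standard error 0.29), Dsp by -0.48 (0.49), Pkp1 by -0.42 (0.21), Dsg3 by -0.34 (0.24), Sfn by -0.30 (0.27), Jup by -0.22 (0.33) and Trp63 by -0.08 (0.18). Only Dsc3 kept its sign, at 0.13 (0.21). None passed the limits, where 154 of all genes did. In this fit, which was chosen with the high epithelial signal of these arrays known, the median change was -0.32. Its signs are not independent of that choice, since N1 and N2 stayed in. They averaged 6.15 and 6.07 over the 8 genes, against 5.56 and 5.68 in L1 and L3. Without L3, Dsc3 passed the limits (log2 change 1.43, standard error 0.58, unadjusted p = 0.0396 by limma), as did 230 of all genes. No other omission of an array let any of the 8 pass in any comparison.

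Between ASC-Is and ASC-Ns the means were closer. All 8 were higher in ASC-Is, from 0.02 for Dsg3 to 0.35 for Sfn, as were 50.9% of all genes, with standard errors between 0.40 and 1.06. Sfn averaged 6.95 ± 1.32 in ASC-Is and 6.60 ± 0.44 in ASC-Ns (SD, n = 3 each), and the 95% interval of its change ran from -2.04 to 2.75. For Trp63 the change was 0.18 (-0.73 to 1.09), for Jup 0.22 (-1.25 to 1.69) and for Dsc3 0.14 (-1.18 to 1.46). For Dsp, Perp and Pkp1 it was 0.12, 0.11 and 0.03. The unadjusted p by limma was at least 0.663 for every gene of the 8. None of the 8 passed the limits, where 50 of all genes did (0.251%), and the stages overlapped for all 8, where 6.54% of genes did not overlap. By limma, 0 of all genes had an adjusted p under 0.05, and 311 (1.56%) an unadjusted p under 0.05. Without both high arrays, 7 of the 8 had a lower mean in ASC-Is, with changes down to -0.53 (standard error 0.24) for Dsg3 and -0.51 (0.49) for Dsp, while Dsc3 stayed at 0.04 (0.21). None of the 8 passed in that fit, where 144 of all genes did.

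When involution was set against lactation, all 8 means were lower in ASC-Is, whereas 48% of all genes were higher. Dsg3 averaged 4.85 ± 0.95 in ASC-Is and 5.90 ± 2.43 in ASC-Ls (SD, n = 3 each), a log2 change of -1.04 (standard error 1.03, 95% interval -3.37 to 1.28, unadjusted p = 0.336 and adjusted p = 1 by limma). Dsc3 averaged 4.29 ± 0.26 in ASC-Is and 5.11 ± 1.44 in ASC-Ls (SD, n = 3 each), a change of -0.82 (standard error 0.58). For Dsp, Perp and Sfn the changes were -0.72, -0.69 and -0.69, and for Pkp1, Jup and Trp63 they were -0.45, -0.39 and -0.25. Here, too, 0 of the 8 passed, against 96 of all genes (0.482%), and the arrays overlapped for all 8, where 5.56% of genes did not overlap. By limma, 0 of all genes had an adjusted p under 0.05, and 359 (1.80%) an unadjusted p under 0.05. With the replicate number as a block, the standard error for Dsg3 was 0.66 (unadjusted p = 0.154 by limma), and 207 of all genes passed the limits and again none of the 8. Without both high arrays, the changes lay between -0.19 (Dsg3) and 0.14 (Jup), with 4 genes on either side of 0 and a median of -0.0056. None of the 8 passed in that fit, where 194 of all genes did. The comparisons share arrays and are not independent of each other.

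**Figure D3:**
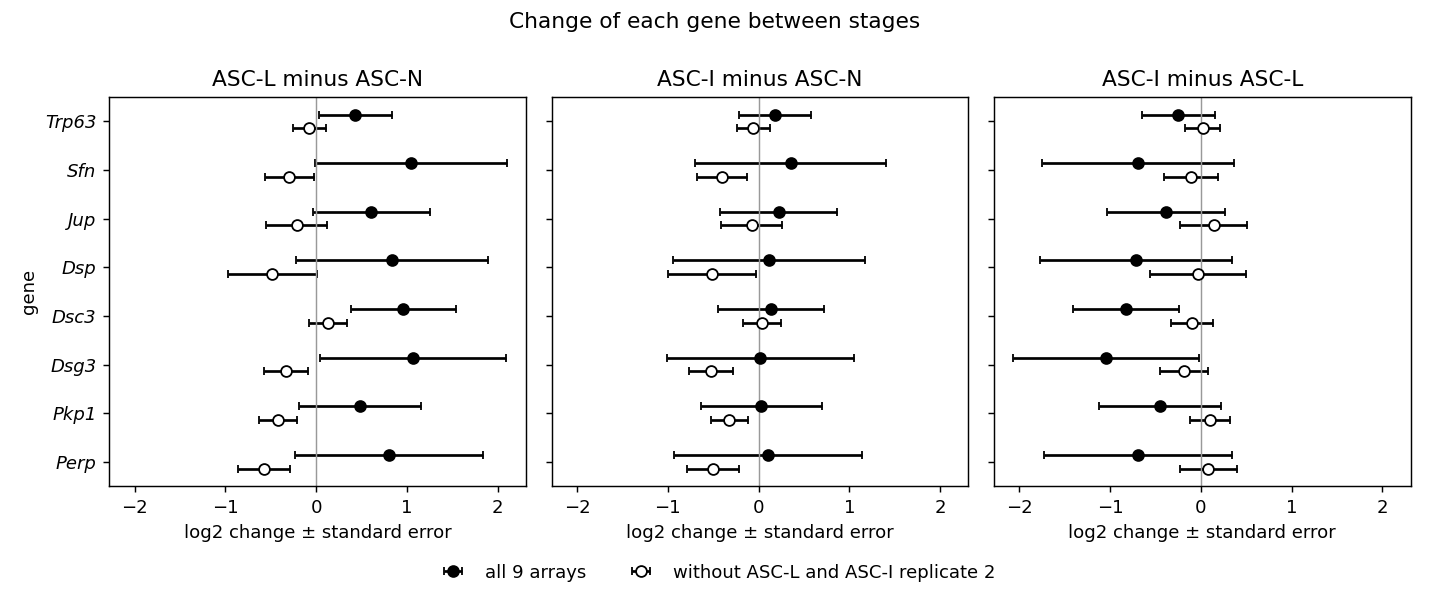
Log2 change of each gene (horizontal axis, with its standard error from limma) in each comparison, with all 9 arrays (filled) and without L2 and I2 (open). In the comparison of ASC-Ls with ASC-Ns the filled points lie between 0.43 and 1.06, and the open points lie below 0 for all genes but Dsc3.

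The profiles were compared with each other by the root mean square difference of the log2 signals over the 9 arrays, each gene centered on its mean. The closest members were Sfn and Perp, which differed by 0.18, followed by Dsg3 and Perp at 0.24 and by Dsp and Perp at 0.27. Trp63 and Dsg3 were the farthest apart, at 0.87. The mean profile of the 8 was matched most closely by Pkp1, at 0.23. Outside the 8, the genes nearest to this mean were Il18r1, a subunit of the interleukin 18 receptor (0.13), the epithelial serine protease St14 (0.14), Lamb3, a laminin chain of the basement membrane under epithelia (0.14), Tns4 (0.15), the carbonic anhydrase Car2 (0.16), the desmoglein Dsg2 (0.17), the potassium channel Kcnk1 (0.17) and Hook1 (0.18). Cldn1, a claudin of tight junctions, was among the 2 nearest genes of Sfn, Dsg3 and Perp. The nearest to Trp63 were Fgd6 and Rab38, those of Jup were Lad1 and Epha2, and those of Dsp were Esrp1, a splicing regulator of epithelial cells, and Wfdc18. Those of Dsc3 were Lce1c, a late cornified envelope gene, and Upk1b, a uroplakin. All of these genes had their highest signal in L2, which follows from their choice by likeness to profiles that peak there.

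Other genes of cell junctions were set beside these. Of 11 further desmosome genes 9 were measured, and 0 passed the limits in any comparison, with median changes of 0.22 between ASC-Ls and ASC-Ns, 0.09 between ASC-Is and ASC-Ns and -0.14 between ASC-Is and ASC-Ls. L2 was the highest ASC-L array for 6 of the 9, and by at least 1 for 2 of them. Dsg2, the desmoglein of simple epithelia, averaged 5.71 ± 1.59 in ASC-Ls against 5.06 ± 0.45 in ASC-Ns (SD). Of 8 measured genes of the hemidesmosome, the junction that ties basal cells to the basement membrane, 0 passed in any comparison, and 5 were higher by at least 1 in L2 than in the other ASC-Ls. Lamb3 had the largest change of these between ASC-Ls and ASC-Ns, at 0.98 (standard error 0.72). Of 7 classical cadherins and catenins 0 passed, and Cdh1, the E-cadherin of epithelia, had 9.75 in L2, 7.72 in I2 and 5.32 to 7.13 elsewhere. Beta-catenin (Ctnnb1), a relative of plakoglobin present in most cells, lay between 10.68 and 11.23 in all 9 arrays. The other 14-3-3 genes, 6 of 6 measured, and 13 measured genes of the p53 family and its targets had 0 members past the limits in any comparison, with median changes between -0.07 and 0.05. Without L2 and I2, Sesn1, a p53 target, passed between ASC-Is and ASC-Ls (0.61), where 194 of all genes did. No other gene of the lists in this paragraph passed in any comparison.

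The names of these genes as basal markers were checked against the markers of that layer. The keratins Krt5 and Krt14 of basal cells reached log2 signals of 11.39 and 10.71 in L2 and 9.48 and 8.54 in I2, against 5.03 to 7.55 in the remaining 7 arrays. Smooth muscle actin (Acta2), which myoepithelial cells and myofibroblasts both make, lay between 12.91 and 13.34 in all arrays and did not follow them. Of 14 basal and myoepithelial markers, L2 was the highest ASC-L array for 7, each by at least 1. The rest of this list was higher in another ASC-L array, 1 marker by as much as 1.17. I2 was the highest ASC-I array for 7 of the 14, by at least 1 for 4, and its median distance to the higher of the other ASC-Is was 0.0012. The luminal markers were high in the same arrays. Of 23 measured, 22 were highest in L2 among the ASC-Ls, 15 of them by at least 1, and 19 were highest in I2 among the ASC-Is. The luminal list averaged 6.67, 6.64 and 5.72 in ASC-Ns, 5.94, 8.46 and 6.11 in ASC-Ls, and 5.85, 7.23 and 5.69 in ASC-Is, so that N3 was the lowest ASC-N here too, as it was for 7 of the 8 genes. The 8 genes cannot be called particular to basal cells in these data, and fewer cells of a type cannot be told apart from less RNA per cell.

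Further lists differed along the same arrays. The 12 measured milk genes averaged 6.89 in L2, 6.13 in I2 and 5.42 to 5.67 elsewhere. The 12 fibroblast and stromal markers averaged 10.35 in L2, below the other 8 arrays at 10.81 to 11.23, and Pdgfra, a receptor of adipose progenitors, was lowest in the same pair of arrays, at 8.86 and 9.86. Among the markers of the labelled stroma, the collagen Col1a1 lay between 12.63 and 13.36 in all arrays, and the intermediate filament Vim between 12.34 and 12.56. Others were uneven, with Lum between 4.62 and 9.06 and S100a4 between 5.71 and 9.55, and 5 of the 12 were lowest in L2. The 8 endothelial markers averaged 7.28 and 6.69 in these arrays, but also 7.0 in N1, where the 8 desmosome and basal genes averaged 6.15, and between 5.01 and 5.55 in the remaining arrays. Markers of suprabasal keratinocytes, 7 measured of 10, averaged between 5.26 and 5.67 and did not set these arrays apart. The 9 adipocyte markers had their lowest averages in L2 and I2, at 6.21 and 6.30, against 6.42 to 6.67 in the other 7 arrays. The macrophage list of 13 genes averaged 8.32, 8.28 and 6.16 in ASC-Ns, 6.84, 6.66 and 6.54 in ASC-Ls, and 9.04, 7.26 and 7.83 in ASC-Is, an order unlike that of the 8 genes except for the low N3. Of these lists, genes past the limits were found between ASC-Ls and ASC-Ns for luminal markers (2 of 23, both higher, F11r by 0.89 and Elf3 by 0.61), milk (1 of 12, Wap, higher by 0.81), stroma, adipocytes and macrophages (1 each, Pdgfra at -1.22, Pparg at -0.96 and Csf1r at -1.07), between ASC-Is and ASC-Ns for adipocytes (1, Pparg at -0.83) and between ASC-Is and ASC-Ls for macrophages (6 of 13, higher, with Cybb, Lyz2 and Adgre1 at 1.81, 1.74 and 1.57). Without L2 and I2, an alternative added after the data were seen, F11r (0.50), Elf3 (0.51), Wap (0.40) and Csf1r (-1.06) no longer passed between ASC-Ls and ASC-Ns, while Pdgfra and Pparg passed at -0.63 and -0.81, joined by Csn1s1 (0.83) and Adgre1 (-0.95). Between ASC-Is and ASC-Ns, 4 of the 23 luminal markers then passed as lower, Cldn4 (-1.56), Spint2 (-0.91), Spint1 (-0.73) and Cldn7 (-0.71), 3 macrophage markers as higher (Cybb, Adgre1 and Lyz2, at 1.80, 1.28 and 1.24), and Pparg again as lower (-0.67). The luminal calls are not independent of the choice of arrays. I2 was left out with its high epithelial signal known, while N1 and N2 stayed. Their luminal averages were 6.67 and 6.64, against 5.85 and 5.69 in I1 and I3. Between ASC-Is and ASC-Ls, 5 of the 6 macrophage markers passed again. In these fits 154 of all genes passed between ASC-Ls and ASC-Ns, 144 between ASC-Is and ASC-Ns and 194 between ASC-Is and ASC-Ls. The part of any of these cell types in the signal of the 8 genes was not tested.

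**Figure D4:**
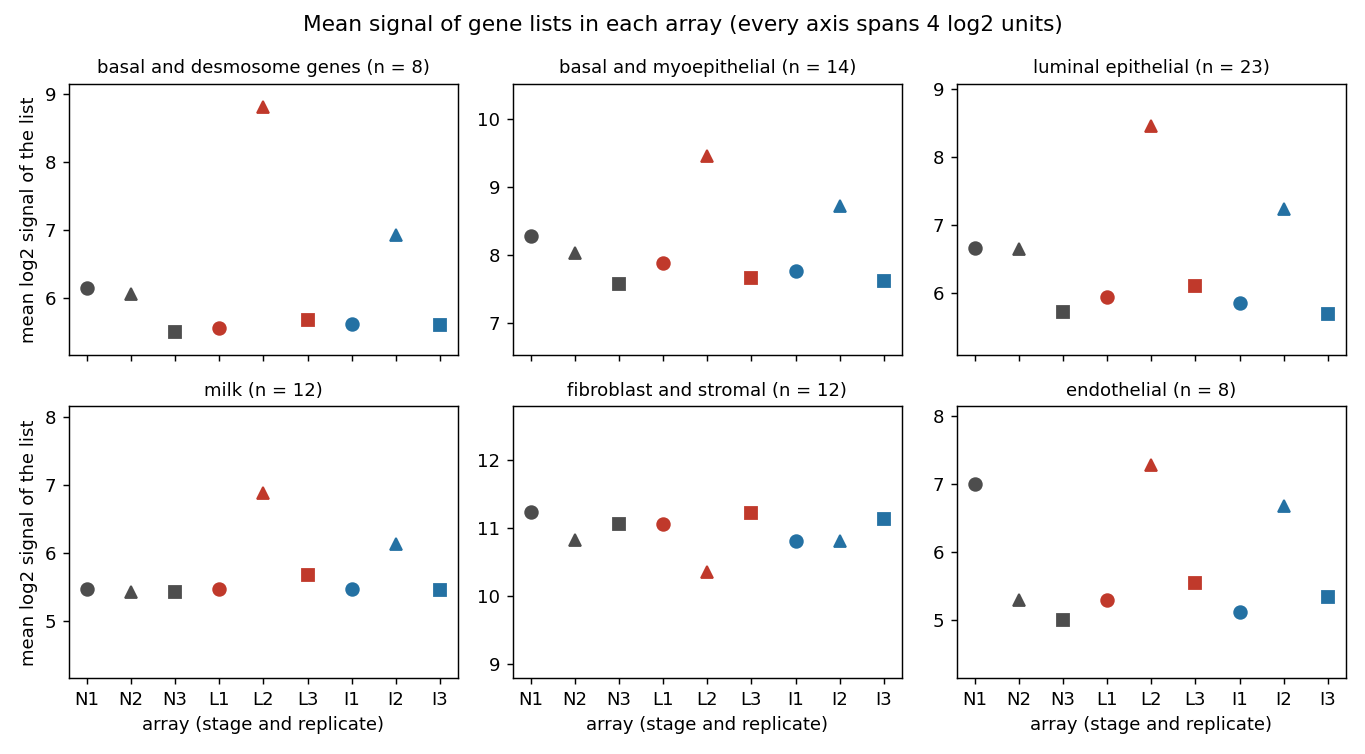
Mean log2 signal (vertical axis, 4 log2 units in each panel) of the 8 genes and of marker lists in each array (horizontal axis, stage letter and replicate number). L2 and I2 are the top arrays for the 8 genes, at 8.81 and 6.93, and for the basal, luminal and milk lists, while L2 is the lowest array for the fibroblast and stromal list.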

How the data were processed

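Total RNA of 9 ASC preparations was hybridized by the authors to Affymetrix Mouse Gene ST arrays. The deposited values are log2 signals per probe set, which the authors made by robust multi-array average according to their methods (the submitters' notes name GCRMA and limma, versions not given in the sources used here). No further normalization was applied. The methods name filters on undetected and on little varying genes. The deposited table still held 15 probe sets of 1 symbol with an SD under 0.05, and detection was not assessed here.

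Of 28348 probe sets, 21762 carried 1 gene symbol in the platform annotation and were averaged to 19930 genes. A further 1621 carried several symbols and 4965 none, and these were left out. A stage-means model was fitted per gene over the 9 arrays with limma 3.58.1 in R 4.3.3 (empirical Bayes, prior degrees of freedom 2.91), and p-values were adjusted over all genes by the Benjamini-Hochberg method. The script was tested on simulated data. Members, lists and tests were chosen with earlier results of these data known. The rule for named genes took all 8 members, the called genes of each list (at most 3, otherwise the most changed), and the genes of nearest profile, and the genes given to check the labels were chosen after their values were seen. Deviations from stage means correlated between same-numbered arrays of ASC-Is and ASC-Ls (r = 0.471, 0.727 and 0.459), so that the numbers were taken to pair these. This does not establish a pairing, since arrays of unlike number were not correlated. The deviations of the 3 arrays of a stage sum to 0, so that the likeness of L2 and I2 alone can raise all 3 values. Against ASC-Ns, r was -0.0777, 0.399 and 0.452 for ASC-Ls and 0.0701, 0.430 and 0.504 for ASC-Is. Since replicate 1 did not exceed 0.1 in either, these were not taken as paired. Alternatives were array weights, a trended and robust prior, a fit of just the pair of stages, quantile normalization, filters on low signal and on low variation, single probe sets, the replicate block, and leaving out arrays. Slide and scan dates were not used here. Promoters came from RefSeq, and figures were drawn with matplotlib 3.10.9.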

Additional observations from a re-analysis of the deposited data

How the results depend on the processing

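The signs of the changes in the 8 genes turned chiefly on L2 and I2. In all, 24 changes were recomputed under 18 alternatives, and of 429 values 372 kept their sign and their side of the limits, 56 turned their sign and 1 came to pass. Many of the 372 could not have turned, since several alternatives leave a log2 change unaltered. Leaving out an array that is in neither stage compared does so too. The count of kept signs is therefore no measure of how stable the signs are. The count of members past the limits was 0 in each comparison under each alternative, except that it was 1 (Dsc3) for lactation against nulliparous once L3 was left out (range 0 to 1 over the arrays left out). Without L3, 230 of all genes passed in that comparison. No sign could turn with a trend and robust prior, only the stages compared, both filters or the replicate block, since these leave a log2 change unaltered. Single probe sets could alter only the changes of Sfn, which kept their signs. None of these alternatives changed a call of a member. By construction the medians with the block were those of the main fit, 0.82 between ASC-Ls and ASC-Ns, 0.13 between ASC-Is and ASC-Ns and -0.69 between ASC-Is and ASC-Ls. With the block, 295 of all genes passed between ASC-Ls and ASC-Ns and 90 between ASC-Is and ASC-Ns, where the numbers are only shared. The filter on low signal left out Dsc3. With array weights the changes that turned were Jup -0.032, Dsp -0.18, Pkp1 -0.11 and Perp -0.10 between ASC-Ls and ASC-Ns, and Sfn -0.12, Jup -0.10, Dsp -0.47, Dsg3 -0.31, Pkp1 -0.24 and Perp -0.32 between ASC-Is and ASC-Ns. With quantile normalization only Dsg3 -0.010 turned, between ASC-Is and ASC-Ns. Without both L2 and I2 the changes that turned were Trp63 -0.076, Sfn -0.30, Jup -0.22, Dsp -0.48, Dsg3 -0.34, Pkp1 -0.42, Perp -0.58 between ASC-Ls and ASC-Ns, Trp63 -0.056, Sfn -0.40, Jup -0.078, Dsp -0.51, Dsg3 -0.53, Pkp1 -0.32, Perp -0.50 between ASC-Is and ASC-Ns and Trp63 0.019, Jup 0.14, Pkp1 0.10, Perp 0.079 between ASC-Is and ASC-Ls. With each array left out in turn, the changes between ASC-Ls and ASC-Ns ranged from -0.076 to 0.81 for Trp63, from -0.30 to 1.84 for Sfn, from -0.22 to 1.27 for Jup, from -0.48 to 1.58 for Dsp, from -0.34 to 1.78 for Dsg3, from -0.42 to 1.02 for Pkp1 and from -0.58 to 1.64 for Perp. With each array left out in turn, the changes between ASC-Is and ASC-Ns ranged from -0.056 to 0.31 for Trp63, from -0.40 to 0.80 for Sfn, from -0.078 to 0.43 for Jup, from -0.51 to 0.48 for Dsp, from -0.025 to 0.28 for Dsc3, from -0.53 to 0.30 for Dsg3, from -0.32 to 0.28 for Pkp1 and from -0.50 to 0.44 for Perp. With each array left out in turn, the changes between ASC-Is and ASC-Ls ranged from -0.63 to 0.26 for Trp63, from -1.48 to 0.65 for Sfn, from -1.05 to 0.44 for Jup, from -1.46 to 0.60 for Dsp, from -1.29 to 0.0040 for Dsc3, from -1.76 to 0.36 for Dsg3, from -0.99 to 0.45 for Pkp1 and from -1.53 to 0.68 for Perp. Without L2 the signs turned for all 8 genes between ASC-Is and ASC-Ls, and for all but Dsc3 between ASC-Ls and ASC-Ns. In the other comparison they turned without I2, without N3 (Dsp, Dsg3, Pkp1 and Perp) or without N1 (Dsc3). The number of all genes past the limits moved by more than 1.5-fold under some alternatives, to between 80 and 404 between ASC-Ls and ASC-Ns, between 32 and 221 between ASC-Is and ASC-Ns and between 36 and 331 between ASC-Is and ASC-Ls. Beyond the arrays left out, the cause was not tested.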
